A study of Saccharomyces cerevisiae with 13 samples.

Results

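Genes for 44 transporters and sensors of amino acids, sulfate, ammonium, urea, nucleobases, peptides, acetate and polyamines were followed through maps of DNA double-strand breaks in budding yeast (Saccharomyces cerevisiae). They were taken by symbol, all 44 matched the RefSeq R64 gene table with 6431 nuclear genes, and they were sorted into 13 substrate classes by textbook substrate. A gene was counted as hit in a peak list when a peak overlapped its body by 1 bp or more. The members had a median length of 1810.5 bp (range 828 to 2682 bp) against 1131 bp over all nuclear genes. Longer genes meet a peak more easily under a 1 bp rule, so the share of gene bases under peaks is given as well.

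The breaks were mapped by Break-Seq, in which DNA ends are tagged with biotin inside agarose plugs, captured and sequenced. Cells of strain WFA72 (MEC1, called WT here) and strain WFA73 (mec1-1, called mec1 here), grown in YPD medium, were held in G1 by the mating pheromone alpha factor (3 µM). Released cells met 200 mM hydroxyurea (HU) for 1 h, and some were sampled after 1 h of recovery without HU (R). HU inhibits ribonucleotide reductase, and MEC1 encodes the checkpoint kinase that answers stalled replication forks. The labels name 1 strain of each genotype and do not say whether the lists of a group came from independent cultures, so that p-values measure the spread between lists. Peaks do not show MEC1 status, which was taken from the labels.

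The 13 samples each gave 1 list of peaks. HU libraries called alone gave 3 lists in mec1, from Exp A, Exp B and the Control experiment, and 2 in WT, from Exp C and Control. Recovery called against HU of the same experiment gave 2 mec1 lists (Exp A, Exp B) and 1 WT list (Exp C). In the Control experiment, HU was also called against a mock-labelled library without biotin and against G1, 1 list of each kind per strain. These 4 are read from the file names in the sample descriptions, since their titles name the comparison material instead. The last list shows DNA of G1 mec1 cells (Exp A) digested outside the cell by the restriction enzyme BamHI, a check of the method with known cuts. The lists held 43 to 547 peaks, and 1296 for BamHI. Read depth is unknown, so that a list with few peaks can reflect a shallow library as well as few breaks.

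Yeast takes up nitrogen and sulfur through permeases of overlapping specificity. Ssy1, a permease-like sensor, detects outside amino acids and turns on genes such as AGP1, BAP2, BAP3, TAT1 and GNP1. Another set, with GAP1, PUT4, UGA4, DUR3, MEP2 and the DAL genes, is held down by nitrogen catabolite repression while a good nitrogen source is at hand.

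After 1 h in HU, mec1 breaks were mapped to 5 permease genes in Exp A, 6 in Exp B and 5 in Control. These are 11.4%, 13.6% and 11.4% of the 44, with exact 95% binomial intervals of 3.79 to 24.6%, 5.17 to 27.4% and 3.79 to 24.6%, which cover counting error only. Among all nuclear genes 5.38%, 6.02% and 10.9% were hit in these lists. The members stood above the background in Exp A and Exp B and level with it in Control. The background shares of Exp A, Exp B and Control all lie inside the intervals. Members were chosen with earlier results of these data known, so this comparison is no independent support for an excess. In WT, 5 members were hit in Exp C (11.4%, interval 3.79 to 24.6%) and 1 in Control (2.27%, interval 0.0575 to 12.02%), against 5.72% and 1.48% of all genes.

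Peaks covered 7.28% (Exp A), 8.94% (Exp B) and 7.86% (Control) of the members' bases in mec1. Over all genes the covered shares were 3.51%, 3.77% and 7.11%. In WT they were 3.76% (Exp C) and 0.416% (Control) for the members and 3.40% and 0.715% for all genes. The 3 mec1 values for the members did not overlap the 2 WT values. The same held over all genes, where the WT value of Exp C lay just below those of mec1 Exp A and Exp B.

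**Figure D1:**
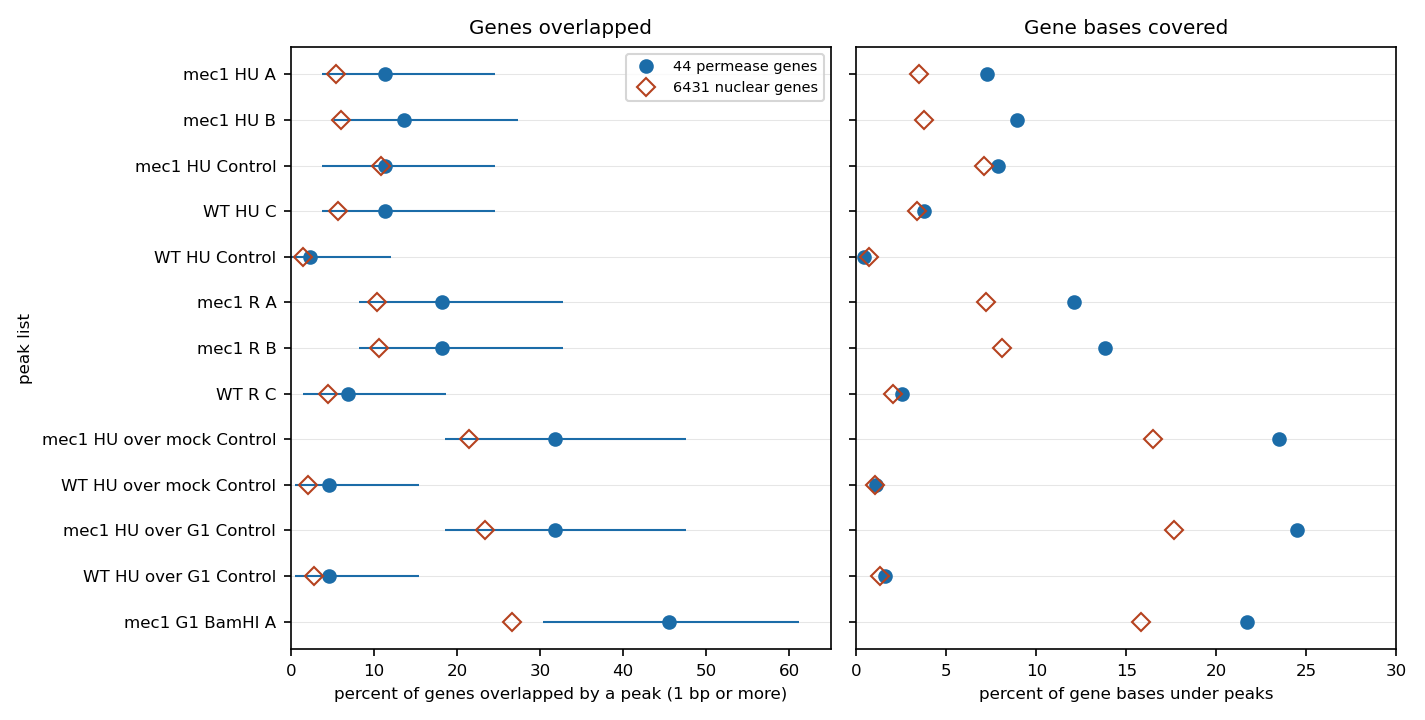
Percent of genes overlapped by a peak (left) and percent of gene bases under peaks (right) in each of the 13 lists, for the 44 permease genes (filled circles) and all 6431 nuclear genes (open diamonds). Bars on the left are exact 95% binomial intervals for the members. On the left, members and background lie closest in mec1 HU Control and WT HU Control, and both are highest in the mec1 lists called over mock and over G1 and in the BamHI list.

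The comparison of strains asked whether more permease genes were hit in HU without the checkpoint kinase. The mean number was 5.33 ± 0.577 (SD, n = 3) in mec1 and 3.00 ± 2.83 (SD, n = 2) in WT, a difference of 2.33 (exact permutation test over lists, two-sided, p = 0.6). The covered share of member bases was 8.03% ± 0.846 (SD, n = 3) in mec1 and 2.09% ± 2.37 (SD, n = 2) in WT, a difference of 5.94 points (exact permutation p = 0.2, two-sided). The smallest p that 3 lists against 2 allow is 0.2. Once the share of all genes hit in the same list was taken off, the members' excess was 4.70 ± 3.72 points (SD, n = 3) in mec1 and 3.22 ± 3.43 points (SD, n = 2) in WT (exact permutation p = 0.6, two-sided). Adjusted over these 3 tests, each exact p was 0.6. Within the Control experiment, the 1 with HU lists of both strains, mec1 minus WT was 4 members, 7.44 points of covered bases and -0.286 points of excess, so that the excess there ran opposite to the difference of means (1.49 points). The difference in number was 0.333 without the WT Control list and 4.33 without the WT Exp C list, so it rests on which WT list is used. Without the WT Control list the difference in excess was -0.937 points, lower in mec1.

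Recurrence over lists was counted next. In mec1 HU, 10 members were hit in at least 1 of 3 lists (22.7%, against 15.4% of all genes), 5 in at least 2 (11.4% against 5.08%), and YCT1 alone in all 3 (2.27% against 1.73%). Of the members hit at all, 5 of 10 recurred in a second mec1 list, against 327 of 993 genes overall. In WT HU, 5 members were hit in at least 1 list (11.4% against 6.73%) and 1 in both (2.27% against 0.466%). Among them were PUT4, ADY2, ATO2 and TPO2, which were hit in WT Exp C and in no mec1 HU list called alone. Of these, all but TPO2 were hit in mec1 Control once it was called over mock, a list that hit 21.4% of all genes. The same overlap was not counted over all genes.

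**Figure D2:**
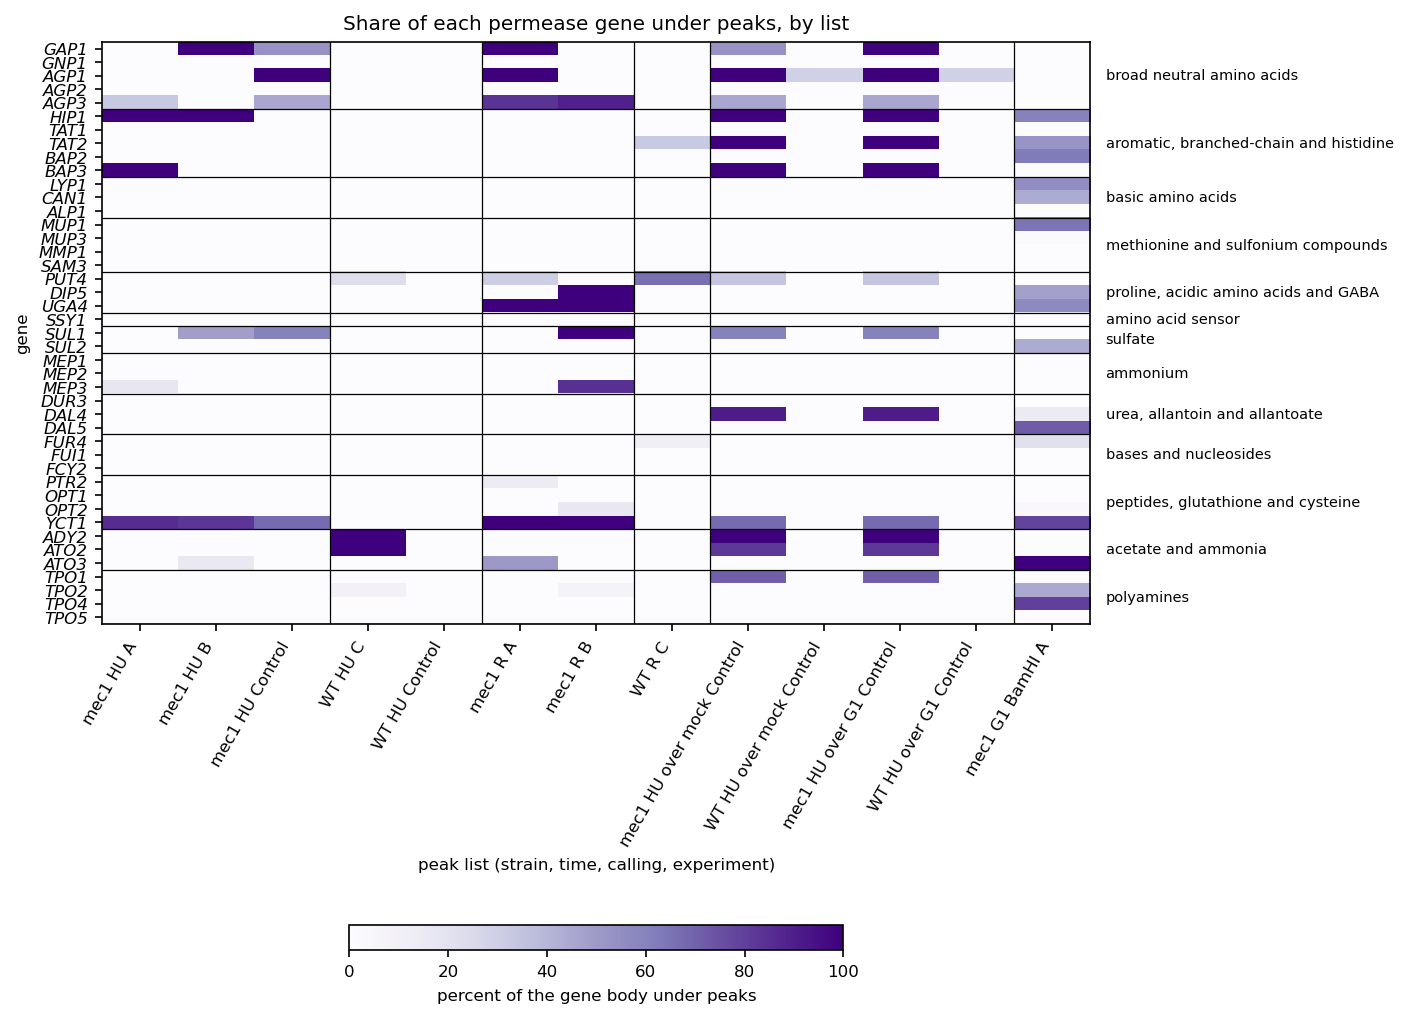
Percent of each gene body under peaks (colour, 0 to 100) for the permease genes reported by name, in rows by substrate class, and the 13 lists in columns. GAP1, AGP3 and YCT1 are marked in mec1 columns alone, and AGP1 in mec1 columns and 2 WT columns. GNP1 and AGP2 of the same broad class have no mark. Without BamHI there are 7 mec1 columns against 5 of WT. ADY2 and ATO2 are marked in WT HU Exp C and in mec1 over mock and over G1. The basic amino acid and methionine classes are marked by BamHI alone.

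YCT1 (YLL055W, chromosome XII 30109 to 31704), which encodes a cysteine transporter, was the only member in all 3 mec1 HU lists. The peaks lay at 30339 to 34388 (Exp A), 30389 to 32979 (Exp B) and 30622 to 32658 (Control) and covered 85.6%, 82.5% and 67.9% of the gene. Each left out the first bases of the gene and ran past its 3′ end, and the left edges lay within 283 bp. Their score percentiles, the rank of a peak by the authors' score within its own list, were 85.5, 78.1 and 93.6. In recovery the gene was covered whole in both mec1 lists (29680 to 33417 and 29685 to 35473), with an earlier left edge than in HU. No WT list had a peak over YCT1, and the nearest WT peaks lay 60.9 to 104 kb away. BamHI cutting of mec1 DNA gave a peak over 78.6% of YCT1.

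Other genes of the peptide, glutathione and cysteine class were hit only in recovery among the 12 cell-derived lists. PTR2, for di- and tripeptides, had 13.6% of its body at the 5′ end under a peak in mec1 R Exp A. OPT2, an oligopeptide transporter family gene, had 16.1% in mec1 R Exp B, also at the 5′ end. The glutathione transporter gene OPT1 was hit in none of the 12. A WT Exp C HU peak stopped 39 bp short of PTR2.

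In the class of permeases for many neutral amino acids, 3 of 5 genes were hit in at least 1 of the 3 mec1 HU lists, where 15.4% of all genes were, and 0 of 5 in the 2 WT HU lists, where 6.73% were. GAP1 (YKR039W, chromosome XI 515063 to 516871), the general amino acid permease, was covered whole in mec1 Exp B (511982 to 517496) and over the 53.3% at its 5′ end in mec1 Control (513292 to 516027). The midpoints of these peaks lay at -324 and -404 bp from the gene start (negative values are upstream), and both peaks also held the tRNA gene YNCK0018C. In recovery Exp A a peak of 6.06 kb with a score percentile of 90.4 covered the whole gene. The HU list of Exp A had its nearest peak 92.3 kb away. In the recovery lists of mec1 Exp B and WT Exp C peaks came within 2.08 and 1.39 kb of the gene.

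AGP3 (YFL055W, chromosome VI 17004 to 18680), a low-affinity permease, lies within 20 kb of a chromosome end. Its 3′ part was under peaks in mec1 Exp A (18131 to 21257, 32.8% of the gene) and mec1 Control (17925 to 21688, 45.1%). In Exp B the nearest peak was 0.735 kb off. The covered share was higher in recovery, 83.4% in Exp A and 89.1% in Exp B, and all these peaks reached from AGP3 into the aquaglyceroporin gene AQY3. Midpoints lay 2690 to 2944 bp from the gene start, past the 3′ end in every case. The recovery lists were called against HU, unlike the HU lists, and their peaks were wider in general. The median width of all peaks was 4156.5 bp (Exp A) and 4339 bp (Exp B) in mec1 recovery, against 3230 and 3202 bp in mec1 HU.

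AGP1 (YCL025C, chromosome III 76018 to 77919), a permease with broad substrate range, was covered whole in mec1 Control HU (75654 to 81629) and in mec1 R Exp A (74963 to 81995, score percentile 97.2). WT Control HU called over mock and over G1 gave a peak on AGP1 too, at 75296 to 76569 over the 29% at its 3′ end. The mec1 HU peak had its midpoint at -722 bp from the gene start, and the WT peak at 1987 bp, past the 3′ end. GNP1, for glutamine and other neutral amino acids, and AGP2 were hit in none of the 12 lists.

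HIP1 (YGR191W, chromosome VII 880420 to 882231), the histidine permease gene, was covered whole in mec1 Exp A (876665 to 883260) and Exp B (877003 to 883240). The right edges of these peaks differed by 20 bp and fell inside TDH3, a glyceraldehyde-3-phosphate dehydrogenase gene, and the peaks also held the tRNA gene YNCG0042C and reached into CRH1. They ranked low in their lists, with score percentiles of 14.5 and 30.5. Neither mec1 recovery list had a peak over HIP1, the nearest being 32.9 kb (Exp A) and 4.27 kb (Exp B) away. In WT Control a peak came within 1.45 kb of the gene. BAP3, a branched-chain amino acid permease gene, was covered whole in mec1 Exp A alone among the HU lists called singly. TAT2, for tryptophan and tyrosine, had 32.1% at its 3′ end under a peak in WT recovery, in which the tRNA gene SUP3 also lay. In mec1 Control called over mock and over G1, a peak of 9.85 kb (279406 to 289252) covered TAT2 whole. TAT1 and its neighbour BAP2 were hit in none of the 12.

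Permeases of basic amino acids (LYP1, CAN1 and ALP1), those of methionine, S-methylmethionine and S-adenosylmethionine (MUP1, MUP3, MMP1 and SAM3) and the sensor gene SSY1 were hit in none of the 12 lists. Of these 8, BamHI peaks lay on LYP1, CAN1, MUP1 and MUP3, on the last over 1.4% of its body. In all, 22 of 44 members were hit in at least 1 of the 12 lists (50.0%, against 36.8% of all genes) and 22 in none, of which 9 had a BamHI peak. Hit and unhit members had the same median length, 1810.5 bp, and lay a median of 105 and 138 kb from a chromosome end. The remaining genes without a hit were SUL2, MEP1, MEP2, DUR3, DAL5, FUI1, FCY2, TPO4 and TPO5.

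UGA4 (YDL210W, chromosome IV 84270 to 85985), the permease for gamma-aminobutyrate, was hit in recovery and not in HU. Peaks at 83942 to 87897 (mec1 Exp A) and 83948 to 86189 (mec1 Exp B) began within 6 bp of each other and covered the whole gene. Their score percentiles were 67.2 and 23.0. In the mec1 HU lists called alone the nearest peaks were 33.3, 33.4 and 67.5 kb away, and the nearest WT peak was 239.7 kb away. DIP5, for glutamate and aspartate, was covered whole in mec1 R Exp B only.

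At PUT4 (YOR348C, chromosome XV 986899 to 988782), the proline permease gene, peaks of the strains lay at opposite ends. WT peaks covered 22.8% in HU Exp C (988353 to 989876) and 66.2% in recovery Exp C (987536 to 989571), from the 5′ side. In mec1, recovery Exp A (977201 to 987469) and Control HU over mock and over G1 (982122 to 987531) covered 30.3% and 33.6% from the 3′ side, with midpoints 6447 and 3956 bp after the gene start, beyond the gene. No base was under peaks of both strains, with a gap of 4 bp between the mec1 Control peak and the WT recovery peak. These are edges of peaks of 1.52 to 10.3 kb, not break sites.

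SUL1 (YBR294W, chromosome II 789235 to 791814), a high-affinity sulfate permease gene, lies 19.7 kb from a chromosome end. Its 3′ part was under peaks in mec1 HU Exp B (790574 to 794151, 48.1%) and Control (790266 to 797827, 60.04%), and mec1 R Exp B covered it whole (789174 to 799424). All 3 peaks had their midpoint past the 3′ end of SUL1 and reached PCA1, a metal transporter gene, and those of Control and recovery also reached PHO89, a phosphate transporter gene. WT peaks came no closer than 298 kb. Its paralog SUL2 was hit in none of the 12 lists.

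MEP3, an ammonium permease gene, had 17.1% at its 5′ end under a peak in mec1 HU Exp A and 84.9% in mec1 R Exp B. DAL4, the allantoin permease gene, was hit (90.9%) in the Control mec1 lists over mock and over G1, by a peak of 9.27 kb that also reached DAL1, the allantoinase gene, and the regulator gene DAL81. Of the base and nucleoside permeases only FUR4, for uracil, was hit, over the 10.4% at its 3′ end in WT recovery. Each of these hits was partial.

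Acetate and ammonia exporter family genes were hit in WT HU. In WT Exp C a peak covered ADY2 (YCR010C, chromosome III 132273 to 133124) whole and another covered ATO2 (YNR002C, chromosome XIV 633008 to 633856) whole, at 128436 to 135330 and 632531 to 639520. Their score percentiles were 84.5 and 61.2. None of the mec1 HU lists called alone hit them, but in mec1 Control a peak stopped 115 bp short of ATO2, and the mec1 Control lists over mock and over G1 covered 100% of ADY2 and 82.0% of ATO2. In WT Control the nearest peak to ADY2 was 1.08 kb away. ATO3 had 15.3% and 50.2% at its 3′ end under peaks of mec1 HU Exp B and mec1 R Exp A, with score percentiles of 4.64 and 3.03, near the bottom of both lists.

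Among the polyamine exporter genes, TPO2 was hit at its 5′ edge, 8.73% in WT HU Exp C and 7.26% in mec1 R Exp B. TPO1 was hit (70.9%) in mec1 Control over mock and over G1 alone.

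Peaks that hit members in HU were seldom centred in them. The median width of all peaks was 3109 to 3230 bp in mec1 HU and 4943 (Exp C) and 2084 bp (Control) in WT HU. The members' median length was 1810.5 bp. Midpoints were not counted for other hit genes, so these positions are not shown to be particular to the members. Of 16 member and peak pairs in mec1 HU, the peak midpoint was inside the gene in 2, upstream of it in 7 and downstream in 7. In 5 of these pairs the gene was covered whole, and HIP1 makes 2 of them. In WT HU, 0 of 6 midpoints were inside the gene, with 5 upstream and 1 downstream. In mec1 recovery 4 of 16 were inside, and the gene was covered whole in 8 of the 16 pairs, with UGA4 and YCT1 each counted in both lists. A tRNA gene lay under a peak of 5 of the 22 hit members (GAP1, HIP1, TAT2, PUT4 and ATO2). The same share was not counted over all hit genes, so whether it is high for the members is unknown. In many cases, then, the permease gene shared its peak with a neighbour, and its own part in the signal was not tested.

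Because recovery was called against HU of the same experiment, places equally broken at both times drop out by construction. In mec1, 8 members were hit in Exp A and 8 in Exp B (18.2% each, intervals 8.19 to 32.7%), against 10.3% and 10.6% of all genes. In WT recovery 3 were hit (6.82%, interval 1.43 to 18.7%), against 4.42%. The covered share of member bases was 12.1% and 13.8% in mec1 against 7.21% and 8.10% over all genes. It was 2.53% in WT against 2.07%.

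Both mec1 recovery lists hit AGP3, UGA4 and YCT1 (6.82% of members against 3.84% of all genes), and 13 members were hit in at least 1 of them (29.5% against 17.1%). Of these 13, 7 were also hit in some mec1 HU list and 6 were not (PUT4, DIP5, UGA4, PTR2, OPT2 and TPO2). The share also hit in HU was 53.8% for members and 50.1% for all genes (551 of 1099). Within an experiment the members shared by HU and recovery were AGP3 and YCT1 in Exp A and SUL1 and YCT1 in Exp B. They make 2 of 5 HU members in Exp A (40.0%, against 62.7% of all HU genes) and 2 of 6 in Exp B (33.3% against 41.6%). In WT 1 of 5, PUT4, was shared (20% against 7.61%).

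The Control experiment allows the same HU library to be read with 3 ways of calling. In mec1, 14 members were hit over mock and the same 14 over G1 (31.8% each, interval 18.6 to 47.6%), against 21.4% and 23.4% of all genes. All 5 member peaks of the list called alone came back with the same interval in both. The other 9 included HIP1, TAT2, BAP3, PUT4, DAL4, ADY2, ATO2 and TPO1, and 3 of the 9 had been hit in mec1 Exp A or Exp B. These 2 shares were not counted over all genes, so whether they are high or low for the members is unknown. In WT, 2 members were hit over mock and over G1, AGP1 among them (4.55% each, interval 0.555 to 15.5%), against 2.05% and 2.8% of all genes. These lists share their HU library with the list called alone and are no independent support for it.

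DNA cut by BamHI in the tube gave peaks on 20 of 44 members (45.5%, interval 30.4 to 61.2%), against 26.7% of all genes. Here 15 of 20 midpoints lay inside the gene and the median width of all peaks was 1306.5 bp, against 3109 to 3230 bp in the mec1 HU lists called alone. The gap between the share of members and the share of all genes hit, in points, was larger in this list than in any of the other 12. This list also hit the largest share of all genes, and a gap in points can grow with that share. As a ratio the excess was not the largest here, since mec1 HU Exp B had 13.6% of members against 6.02% of all genes. For covered bases the gap in points was not the largest in this list either. BamHI peaks covered 21.7% of member bases against 15.8% over all genes. The gap was wider in mec1 Control over mock (23.5% against 16.5%) and over G1 (24.5% against 17.7%).

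Other genes of amino acid and nitrogen use were looked up in 4 lists of 55 genes outside the members. In mec1 HU at least 1 list hit 1 of 16 regulators, 3 of 10 genes of permease sorting, 2 of 15 nitrogen catabolism enzymes and 1 of 14 vacuolar amino acid transporters, 7 of 55 in all (12.7%, against 15.4% of all genes). CHA1 (YCL064C), the serine and threonine deaminase gene, was the only 1 of the 55 hit in at least 2 mec1 HU lists (1.82% against 5.08% of all genes). It was covered whole in Exp A and Control and again in mec1 R Exp B. In WT HU 2 of 55 were hit (3.64% against 6.73%), and 0 in both lists. In mec1 recovery at least 1 list hit 6 of 16 regulators, 2 of 10 sorting genes, 4 of 15 catabolism enzymes and 1 of 14 vacuolar transporters, 13 of 55 in all (23.6% against 17.1% of all genes).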

How the data were processed

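Peaks were called by the authors with MACS, from 1 library alone or against another, per the labels. The submitters' processing notes name MACS 1.4.1, Bowtie2 and BWA 0.6.2 for 7 samples, BWA with no version for the 6 Control samples, and the build sacCer3 for all. For filters and thresholds of calling, nothing is stated in these sources. The deposited score of a peak served to order and filter peaks inside 1 list, since the files do not state its scale. Depth is unknown.

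Starts were made 1-based by adding 1. The 2-digit chromosome names of the BamHI list were translated. Genes were those of RefSeq R64 on 16 nuclear chromosomes, and strand was read from W or C in systematic names. Overlap code was tested on simulated peaks. Lists were the unit of the exact permutation tests, with Benjamini-Hochberg adjustment over 3 tests. Intervals are exact Clopper-Pearson. Python 3.11.15, pandas 2.3.3 and scipy 1.17.1 were used.

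The members and gene lists were chosen with earlier results of these data known. Named by rule were members in at least 2 mec1 HU lists, both WT HU lists or both mec1 R lists, and the most often hit member of each class. The other hit members were named after their values were seen. One member that meets the rule is in the counts and is not reported by name here. Among the 55 other genes the rule was at least 2 mec1 HU or both WT HU lists.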

Additional observations from a re-analysis of the deposited data

Results flagged for a closer look

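The difference in members hit between the recovery and HU lists had opposite signs in the strains. In mec1 the recovery list hit 3 more permease genes than the HU list in Exp A and 2 more in Exp B. In WT Exp C, recovery minus HU was -2. The number of all nuclear genes hit differed the same way. It was 346 in HU and 664 in recovery, and 387 and 682, in mec1, and 368 and 284 in WT. The difference between strains was not tested, with 1 WT experiment. Recovery was called against HU while HU was called alone, so these numbers do not measure a change in breaks over time.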

How the results depend on the processing

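The difference between strains in members hit kept its direction in 11 of 12 alternatives and reversed (-0.5) with as many top peaks per list as the shortest HU list (43). The difference in covered bases kept its direction in 11 of 11. From 5.94 points it fell to 2.69 with the upper part of each list by score and to 1.06 with equal numbers of top peaks. It was 0.12 with 200 bp around midpoints. Fewer or narrower peaks cover fewer bases by construction, so the size of these 3 differences cannot be set against 5.94. The difference in excess over all genes kept it in 9 of 13; it was -0.00842 with 500 bp upstream added, -0.799 without genes in the outer 20 kb and -0.693 with equal numbers of top peaks, and without the WT Control list it was -0.937. Leaving out 1 list gave 0.333 to 4.33 members, 4.26 to 7.61 points of covered bases and -0.937 to 3.91 points of excess. The cause of the reversals was not tested. No exact permutation test passed under any alternative, as lists this few cannot.

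Counts in lists called against another library moved by more than 1.5 times as follows. Fewer or narrower peaks overlap fewer genes of any kind, so the excess over all genes hit is given too. With 200 bp around midpoints the counts were 2 (mec1 R, mean per list), 1 (WT R), 4 (mec1 over mock), 1 (WT over mock), 5 (mec1 over G1) and 1 (WT over G1). The excess was 2.46 (mec1 R Exp A), 1.81 (mec1 R Exp B) and 0.935 points (WT R). It was 3.51 (mec1 over mock), 1.67 (WT over mock), 4.91 (mec1 over G1) and 1.36 points (WT over G1). With equal numbers of top peaks the counts were 1.5, 1, 1, 1, 0 and 1 in the same order. The excess was then 2.03 (mec1 R Exp A), -0.759 (mec1 R Exp B) and 0.267 points (WT R). It was -0.993 in mec1 over mock and -3.50 in mec1 over G1, where all peaks gave 10.4 and 8.40 points. In WT it was 0.624 (over mock) and 0.562 points (over G1). With at least 50% of the gene covered the counts were 1 (WT R), 0 (WT over mock) and 0 (WT over G1), with an excess of -0.34, -1.35 and -1.77 points. The upper part of each list by score gave 1, 0 and 1 for the same lists, with an excess of -0.464, -1.23 and 0.485 points. A score of at least 100 gave 1 for WT over mock, with an excess of 0.702 points. Other counts stayed within 1.5 times. No paired analysis was possible because the groups tested share only the Control experiment, which is 1 pair.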
